A study of Mus musculus with 6 samples.

Results

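Genomic imprinting was followed here through 38 genes that are known to be expressed mainly from 1 parental allele, in cultured mouse spermatogonial stem cells with and without bisphenol A (BPA). The 38 were taken by gene name from a list of known imprinted genes, and all 38 were found among the 34745 genes of the expression table. The list was chosen with earlier results of these data known. By general knowledge 21 are expressed from the paternal allele and 16 from the maternal allele, and Gnas has promoters of either kind. Listed here as imprinted only in certain tissues or for certain isoforms were 7 of them (Copg2, Ube3a, Cd81, Commd1, Trappc9, Inpp5f and Ddc). Others of the 38 may be restricted too. The counts do not separate alleles, so every value below is the sum over both.

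RNA sequencing covered 6 libraries. The 3 untreated and the 3 BPA samples share their source: stem cell cultures of DBA/2J X c57BL/6J hybrid mice, taken at postnatal day 6 and used at passages 15 to 20. The BPA samples had been given 100 µM BPA, a plastics monomer and endocrine disruptor, for about 4 days. The labels name no vehicle for the untreated samples, so an effect of a solvent and one of BPA cannot be told apart. The labels also give no separate culture or animal for each replicate, so a p-value here refers to the spread among these 3 and 3 samples, which may be technical.

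Imprinted genes carry DNA methylation at control regions that was laid down in the egg or in sperm precursors, and which allele is expressed follows from that mark. The marks are erased in primordial germ cells and set anew, in the male line before and around birth, so that spermatogonia carry the paternal pattern on both chromosomes. Many imprinted genes act on growth: paternally expressed genes such as Igf2 tend to promote it, and maternally expressed genes such as Igf2r, Grb10, Cdkn1c and H19 tend to restrain it. Clusters are often paired, with a non-coding RNA from one allele and protein-coding genes from the other.

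Library totals ranged from 13453280 to 22286517 gene counts. BPA replicate 2 stood apart: its chi-square per degree of freedom was 64.2 and 84.5 against the other BPA libraries, and 18.9 to 25.4 between the other replicate pairs of either group, so no pair was within sampling noise. Without it 4 imprinted genes were higher and 4 lower, while 8.81% of all tested genes were higher and 11.7% lower. All 13 spermatogonial stem cell markers were at 1 CPM (counts per 1000000 counts, TMM-scaled) or above, with a summed level of 2151 to 2179 CPM in the untreated and 1808 to 2256 CPM in the BPA libraries. Within that list Nanos3 fell from 272, 247 and 237 CPM to 31.9, 48.9 and 39.7 CPM, with a log2 change of -2.65 (SE 0.19) at an edgeR adjusted p of 8.46e-06. Id4 also fell, from a mean of 26.4 to 13.1 CPM (edgeR adjusted p = 0.0401), and Sall4 rose, with a log2 change of 0.82 (edgeR adjusted p = 0.0379). Of 15 fibroblast markers 12 reached 1 CPM, with sums of 467 to 549 CPM untreated and 380.5 to 704 CPM under BPA, while Dcn, Lum and Postn were below 1 CPM and Tagln fell (log2 change -1.84, edgeR adjusted p = 0.0333). Of 12 Sertoli markers 6 reached 1 CPM, and the sum of the list was 75.5 to 86.3 CPM untreated and 143 to 182 CPM under BPA, with Amh, Cldn11, Dhh, Fshr, Inha and Rhox5 below 1 CPM. Of the 7 Sertoli markers tested Sox9 and Clu rose and 5 did not pass, Kitl and Sox8 among them with log2 changes of -1.23 and -0.26. No Leydig marker of 7 reached 1 CPM, and of 7 immune markers Cd68 and Lyz2 did, with list sums of 57.1 to 60.6 CPM untreated and 30.8 to 43.3 CPM under BPA. In bulk samples fewer cells of a type and less RNA per cell cannot be told apart, and the part of these other cells in the results below was not tested.

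Of the 38 genes 32 had enough counts to be tested. Under BPA 3 rose, Igf2r, Copg2 and Grb10, and 4 fell, Nnat, Mest, Slc38a4 and H19 (edgeR quasi-likelihood test, Benjamini-Hochberg adjusted p under 0.05). All 3 genes that rose are of the maternally expressed class, and of the 4 that fell 3 are paternally expressed and 1, H19, is maternally expressed. The 7 are 21.9% of the 32, beside 10.6% of all 13287 tested genes, 4.37% being higher and 6.28% lower. Of 19 tested imprinted genes outside the 38, 10.5% were called. The members were chosen with earlier results of these data known, so these shares and those below carry no test. Abundant genes were called more often: among genes with a mean of at least 10 CPM the share was 16.4%, against 7 of 17 imprinted genes, and among those of at least 50 CPM it was 22.9%, against 5 of 9. Of all 1415 called genes 1301 had a mean of at least 10 CPM, and none of the 15 tested imprinted genes under 10 CPM was called. The count of lower genes was 1 when untreated replicate 1, untreated replicate 3, BPA replicate 1 or BPA replicate 3 was left out and 2 when untreated replicate 2 was, while 2.06% to 3.44% of all tested genes were then lower. The count of higher genes was 2 to 3 in those 5 fits, with 1.18% to 2.44% of all tested genes higher. It was 5 with a correction for GC content and length, with 6.57% of all higher.

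**Figure D1:**
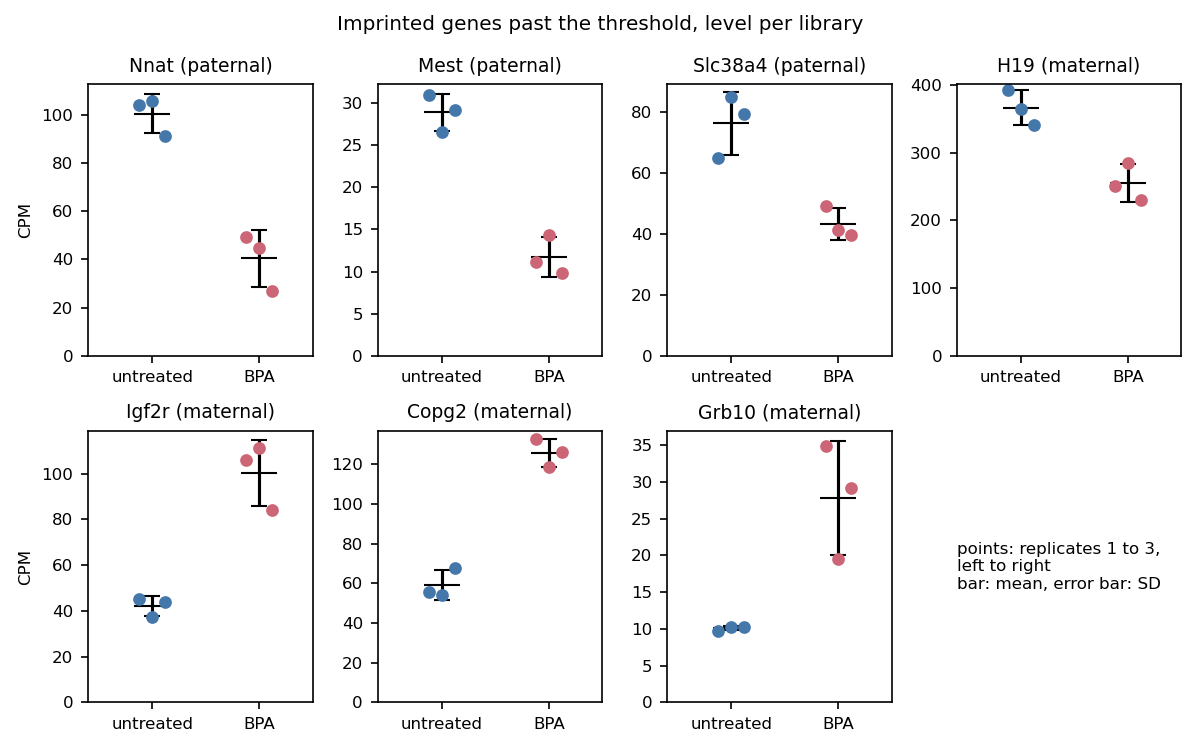
Expression in CPM (vertical axis, from 0) of the 7 imprinted genes that passed the test, in the 3 untreated and 3 BPA libraries; each point is a library and each dash the group mean with its SD as error bar. For each gene the 3 BPA points lie on one side of the 3 untreated points, above them for Igf2r, Copg2 and Grb10 and below them for Nnat, Mest, Slc38a4 and H19.

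Start regions were looked at for 6 of the 7 called genes, H19 not among them. For their range of CG dinucleotides, the sites at which DNA can be methylated, 4 are shown. The start regions were not matched to the control regions that carry imprints, and methylation was not analysed here. The 250 bases upstream of the RefSeq start (GRCm38.p6) with the most CGs were taken for each gene, written 5′ to 3′ on the strand of the gene with each CG in capitals. Igf2r is at chr17:12769707-12769956, Grb10 at chr11:12037421-12037670 and Slc38a4 at chr15:97020360-97020609, all on the minus strand, and Nnat is at chr2:157559828-157560077 on the plus strand.
Igf2r: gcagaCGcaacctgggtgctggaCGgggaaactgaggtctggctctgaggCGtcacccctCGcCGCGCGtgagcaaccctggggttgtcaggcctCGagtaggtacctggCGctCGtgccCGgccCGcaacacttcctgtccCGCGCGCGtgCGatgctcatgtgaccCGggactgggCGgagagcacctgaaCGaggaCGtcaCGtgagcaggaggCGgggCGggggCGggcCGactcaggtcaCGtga
Grb10: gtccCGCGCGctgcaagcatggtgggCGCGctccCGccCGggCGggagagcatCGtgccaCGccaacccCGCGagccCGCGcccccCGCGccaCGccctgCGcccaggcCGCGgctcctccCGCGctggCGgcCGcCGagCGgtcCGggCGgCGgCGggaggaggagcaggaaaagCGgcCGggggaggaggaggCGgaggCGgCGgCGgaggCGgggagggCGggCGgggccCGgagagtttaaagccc
Nnat: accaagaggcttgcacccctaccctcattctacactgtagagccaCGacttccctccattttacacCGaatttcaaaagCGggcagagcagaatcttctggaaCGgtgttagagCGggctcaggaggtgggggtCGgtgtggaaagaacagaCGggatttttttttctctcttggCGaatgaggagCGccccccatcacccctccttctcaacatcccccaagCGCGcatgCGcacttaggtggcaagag
Slc38a4: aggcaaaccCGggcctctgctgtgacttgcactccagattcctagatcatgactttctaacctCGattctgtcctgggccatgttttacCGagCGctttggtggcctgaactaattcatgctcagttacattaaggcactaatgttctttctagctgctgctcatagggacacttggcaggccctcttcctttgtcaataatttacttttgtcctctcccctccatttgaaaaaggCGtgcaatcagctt

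Among genes that rose, these windows held 40 CGs for Grb10, 27 for Igf2r and 19 for Copg2. Among genes that fell, they held 14 for Mest, 12 for Nnat and 5 for Slc38a4. The counts of the 3 higher and these 3 of the 4 lower genes did not overlap. The 6 windows were looked at after the calls and carry no test. The same split parts maternally expressed genes, the 3 higher ones, from paternally expressed genes, the 3 lower ones. The windows of Slc38a4, Mest and Grb10 lie inside the loci of these genes given here, not at their outer 5′ ends. The median was 6 CGs over 27025 genes with 1 start each and 10 over the 31 imprinted genes in the RefSeq table, with 16 for the 13 maternally and 8 for the 17 paternally expressed ones. On either strand TGCCGC, the letters bound by the imprint-protecting zinc finger protein ZFP57, occurred in 5 of the 31 windows (16.1%) and in 9.15% of all, with 2 matches for Mest and 1 for Copg2. The letters TGATGNAA, the core of the element bound by ATF4 with C/EBP proteins, occurred in 0 of the 31 and in 3.39% of all.

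Igf2r and Grb10, both restraints on growth factor signalling, rose together. Igf2r encodes the receptor that clears IGF2 from the cell surface and carries it to lysosomes (chr17:12682406-12769664, mm10, as all loci here). Its level was 45.4, 37.3 and 44.0 CPM in untreated replicates 1 to 3 and 106, 111 and 83.9 CPM in BPA replicates 1 to 3. All 3 BPA libraries lay above all 3 untreated ones, a log2 fold change of 1.25 (SE 0.20, edgeR adjusted p = 0.00214). Grb10, an adaptor protein that dampens insulin and IGF receptor signalling (chr11:11930508-12038683), stood at 9.75, 10.2 and 10.3 CPM untreated and at 34.9, 19.5 and 29.2 CPM under BPA. The untreated libraries were close together and BPA replicate 2 was the lowest of the BPA libraries, with a log2 fold change of 1.46 (SE 0.31, edgeR adjusted p = 0.0127). Without BPA replicate 1, untreated replicate 1 or untreated replicate 2 the Grb10 adjusted p was 0.0786, 0.074 or 0.0516.

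The partners of these genes in their clusters, Airn and Ddc, were not called, and neither was Igf2, which belongs to another cluster. Airn, the paternally expressed antisense RNA that silences Igf2r on the paternal chromosome, had 0 counts in 5 libraries and 12 counts, 0.489 CPM, in BPA replicate 3. A count of 0 allows up to 0.149 to 0.235 CPM in those 5 libraries, and Airn was not tested. Ddc, the neighbour of Grb10 that makes dopamine and serotonin from their precursors, was at 2.58, 4.24 and 0.798 CPM untreated and 0, 0.446 and 0.693 CPM under BPA. The BPA libraries were the lower ones, but the log2 fold change of -2.69 had an SE of 1.37 (edgeR adjusted p = 0.247). Igf2, the growth factor that Igf2r clears, was at 52.8, 41.1 and 52.2 CPM untreated and 33.6, 50.9 and 34.7 CPM under BPA. Its groups overlapped (log2 fold change -0.29, SE 0.24, edgeR adjusted p = 0.489).

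H19, the non-coding RNA that shares its control region with Igf2 (chr7:142575529-142578143), was the most abundant of the 38. In the textbook pattern of male germ cells both copies of its control region are methylated and the gene is silent, while fibroblasts can express it. Fibroblast markers were present at the sums given above, and how much of the H19 count came from such cells was not tested. H19 fell from 392, 365 and 341 CPM to 250, 285 and 230 CPM. The groups did not overlap, and the fall was the smallest of the 7 on the log2 scale, -0.52 (SE 0.14, edgeR adjusted p = 0.0392). Leaving out a library ended this call for every library but BPA replicate 2, with adjusted p from 0.0655 to 0.185, and so did the correction for GC content and length (0.0822). H19 is also the precursor of Mir675, which lies in its exon (minus strand, chr7:142577112-142577133 for the 5p arm and chr7:142577078-142577099 for the 3p arm). The 2 mature sequences from RefSeq are shown with the seed, bases 2 to 8, in capitals, since the seed chooses the targets. miRNA levels were not analysed here.
mmu-miR-675-5p: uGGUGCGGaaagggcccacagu
mmu-miR-675-3p: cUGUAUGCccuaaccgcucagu

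Mest and Copg2 lie side by side on chromosome 6 and moved in opposite directions. Mest, a paternally expressed enzyme of the alpha/beta hydrolase fold (chr6:30723547-30748465, plus strand), fell from 31.0, 26.5 and 29.1 CPM to 11.1, 14.4 and 9.79 CPM. Copg2, a subunit of the COPI vesicle coat (chr6:30747554-30896794, minus strand), rose from 55.6, 54.1 and 67.8 CPM to 132, 119 and 126 CPM. In either gene the 3 BPA libraries were clear of the 3 untreated ones. The log2 fold change was -1.29 for Mest (SE 0.29, edgeR adjusted p = 0.0154) and 1.09 for Copg2 (SE 0.18, edgeR adjusted p = 0.00263). Their exons share 912 bases on opposite strands, 23.1% of the exon length of Mest and 17.8% of that of Copg2. The library kit does not mark strand, so reads from the shared bases cannot be assigned to either gene, and their part in the counts was not tested. Mest missed the threshold when untreated replicate 1, untreated replicate 3, BPA replicate 1 or BPA replicate 3 was left out, at adjusted p of 0.0531 to 0.0887. An intron of Mest holds Mir335 on the same strand (chr6:30741314-30741336 for the 5p arm and chr6:30741354-30741375 for the 3p arm), and its mature sequences are given likewise.
mmu-miR-335-5p: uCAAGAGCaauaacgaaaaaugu
mmu-miR-335-3p: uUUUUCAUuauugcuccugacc

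Nnat and Slc38a4, paternally expressed genes for membrane proteins, fell. Nnat, neuronatin, a small proteolipid (chr2:157560078-157562522), was at 104, 106 and 91.1 CPM untreated and at 49.2, 44.8 and 27.0 CPM under BPA. BPA replicate 3 was the lowest, and the log2 fold change was -1.32 (SE 0.24, edgeR adjusted p = 0.00468). Slc38a4, a sodium-coupled amino acid transporter (chr15:96994823-97055956), was at 64.7, 84.7 and 79.1 CPM untreated and at 49.2, 41.1 and 39.5 CPM under BPA. Its groups were apart by the gap between untreated replicate 1 and BPA replicate 1, with a log2 fold change of -0.82 (SE 0.20, edgeR adjusted p = 0.0254). Slc38a4 missed the threshold whenever a library was left out, BPA replicate 2 excepted, at adjusted p of 0.0571 to 0.127. Igf2r, Copg2 and Nnat passed in all 14 alternative analyses.

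**Figure D2:**
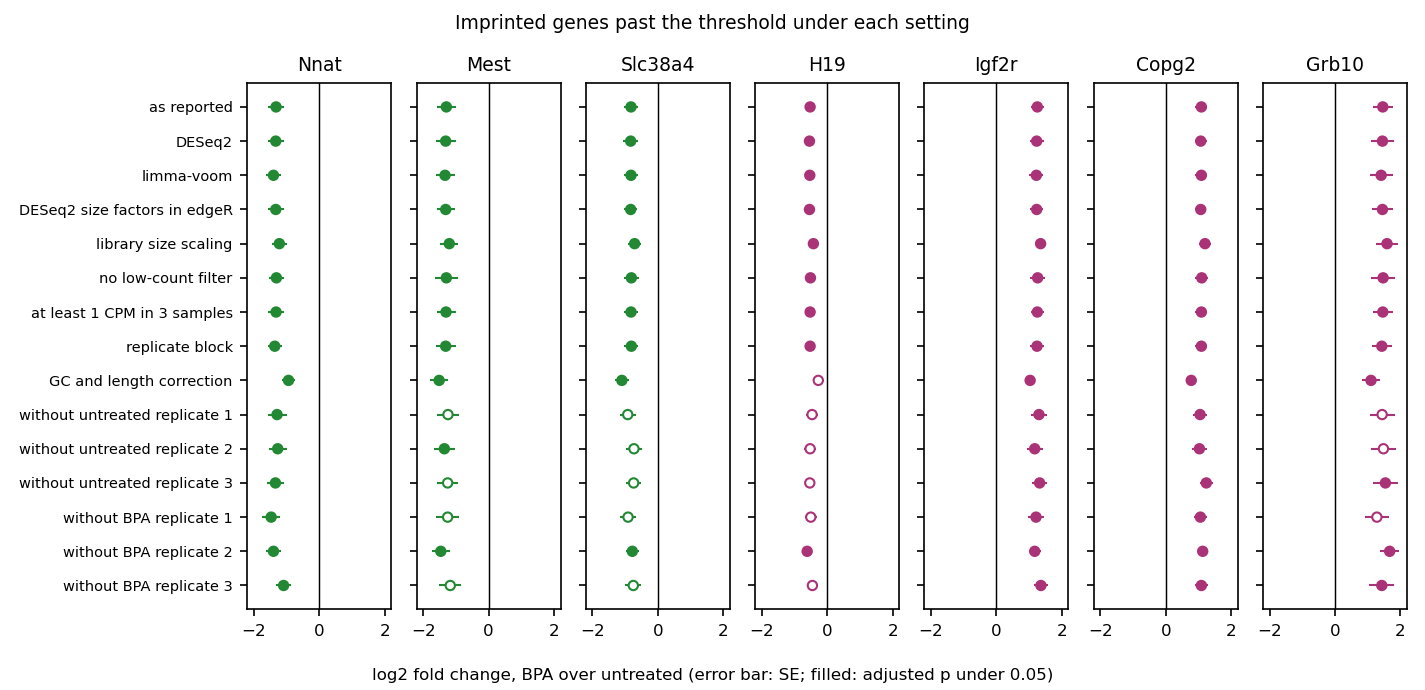
Log2 fold change, BPA over untreated, of the 7 imprinted genes that passed the test (horizontal axis) under the main analysis and 14 alternatives; each point is 1 analysis with its SE, filled where the adjusted p was under 0.05, and the vertical line at 0 is no change. No gene crosses 0 in any of the 15 analyses.

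Of the other abundant imprinted genes none passed. Cdkn1c, the cyclin-dependent kinase inhibitor p57, was at 110, 132 and 128 CPM untreated and 155, 199 and 150 CPM under BPA. The BPA libraries were all higher (log2 fold change 0.45, SE 0.17, edgeR adjusted p = 0.12), and the gene passed with library size scaling, at 0.0256, and with the GC and length correction. Cd81, a tetraspanin, was at 120, 121 and 119 CPM against 110, 118 and 92.0 CPM (log2 fold change -0.17, edgeR adjusted p = 0.562). Ndn, a growth suppressor of the Prader-Willi region, was at 80.5, 87.7 and 69.2 CPM against 82.6, 81.4 and 63.6 CPM, with a log2 change of -0.06 (SE 0.19) at an edgeR adjusted p of 0.882. Its groups overlapped throughout, and the sign of its change turned with library size scaling and without untreated replicate 2 or BPA replicate 3. Trappc9, a subunit of a vesicle-tethering complex, was at 44.0, 52.5 and 37.95 CPM against 52.8, 72.8 and 46.4 CPM (log2 fold change 0.36, edgeR adjusted p = 0.385). These tests do not show that the 4 genes were equal in the groups.

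The remaining genes were mostly rare. Ascl2, a transcription factor of the placenta, was singled out after its values were seen: it was at 4.22, 7.85 and 7.47 CPM untreated and 13.3, 14.8 and 14.4 CPM under BPA. All BPA libraries were higher, with a log2 fold change of 1.12 (SE 0.39, edgeR adjusted p = 0.0878), and the gene passed with the GC and length correction. Between 10 and 50 CPM, Dlk1, Phlda2, Inpp5f and Gnas had log2 fold changes of -0.06, 0.10, 0.60 and -0.23, and the groups of each overlapped (edgeR adjusted p 0.333 to 0.908). Inpp5f, an inositol phosphatase, passed without BPA replicate 2, at 0.0399. Of the 21 genes with a mean under 10 CPM 15 were tested, with log2 fold changes from -2.69 for Ddc to 1.67 for Plagl1, a zinc finger growth suppressor. Among them the BPA libraries lay above all untreated ones for Peg3, Peg10 and Plagl1 and below them for Ddc and Ube3a. These 5 are 33.3% of the 15, near the 31.3% of all tested genes whose groups did not overlap. Ube3a, a ubiquitin ligase, passed as lower with the GC and length correction. The groups overlapped for Snrpn, Kcnq1ot1, Slc22a18, Impact, Meg3, Rian, Sgce, Zrsr1, Commd1 and Peg13. Usp29, Nap1l5, Magel2, Airn, Asb4 and Mirg were too rare to test, and Asb4 had 1 count in all 6 libraries.

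The 25 tested genes that did not pass had adjusted p from 0.0878 to 0.971. Rare genes varied widely: the coefficient of variation in the untreated libraries had a median of 81.1% below 10 CPM and 10.3% at or above it. Some counts are uncertain because exons overlap those of other genes in the table. The overlap was 27.3% of the exon length for Snrpn, 22.0% for Gnas, 14.3% for Usp29, 11.9% for Commd1, 9.2% for Zrsr1, 8.7% for Ube3a and 6.8% for Meg3. It was 0 for Igf2r, Grb10, Nnat, Slc38a4 and H19.

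**Figure D3:**
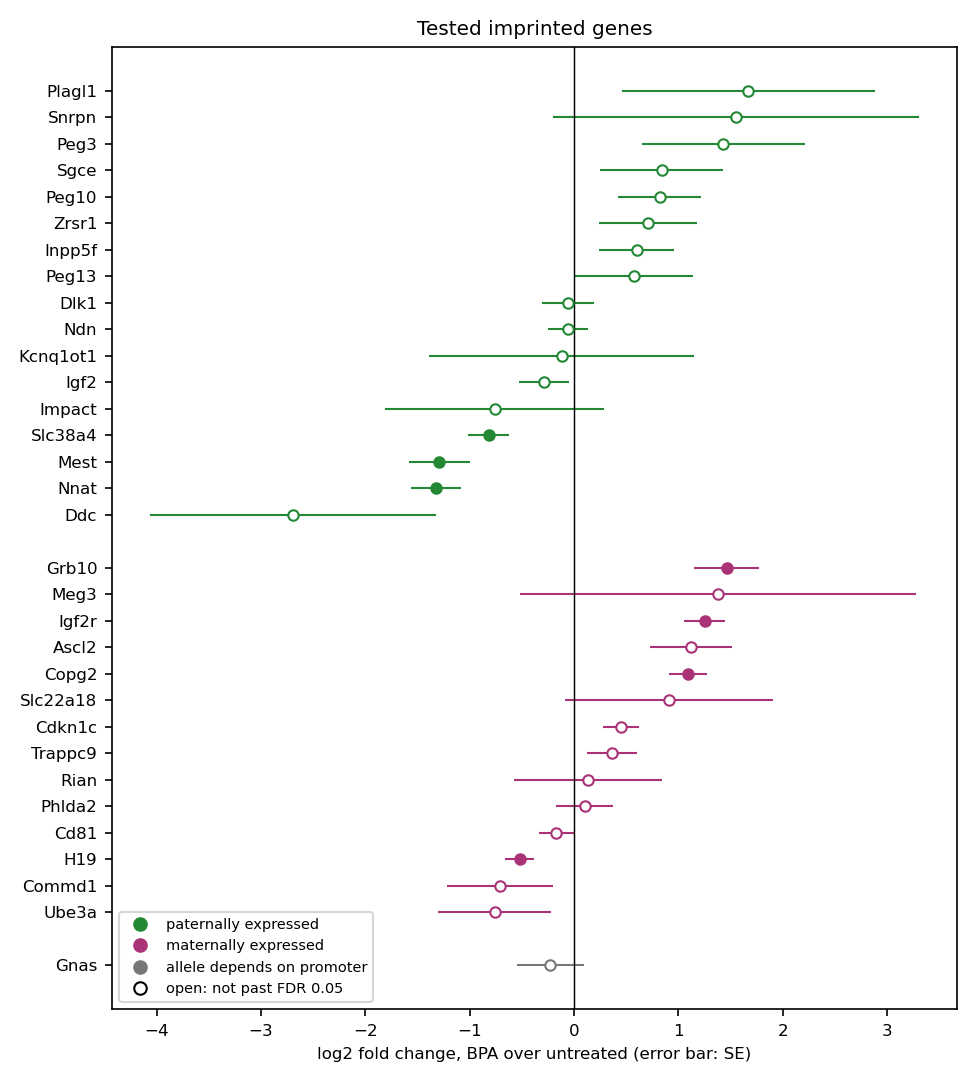
Log2 fold change, BPA over untreated, with its SE, for the 32 tested imprinted genes (1 row each), grouped by the allele known to be expressed; filled points passed the test and open points did not. The 3 genes past the threshold on the right are in the maternal class, and H19 is its only called gene on the left.

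The classes were compared to see whether paternally and maternally expressed genes moved apart. They come from general knowledge, while spermatogonia carry the paternal pattern on both chromosomes. Which allele was active in these cells was not tested, since the counts do not separate alleles. Of 17 tested paternally expressed genes 0 rose and 3 fell, with 8 above and 9 below a log2 fold change of 0 and a median of -0.06. Of 14 tested maternally expressed genes 3 rose and 1 fell, with 10 above and 4 below 0 and a median of 0.40. Of all 13287 tested genes 4.37% rose and 6.28% fell, with 7363 above and 5924 below 0 and a median of 0.10. The paternal minus maternal median was -0.46, but per BPA library, against the untreated mean with a pseudocount of 0.5 CPM, it was -0.43, -0.54 and 0.43, so the sign was not shared by the 3 libraries. It was 0.32 with no low-count filter and 0.21 with a filter of at least 1 CPM in 3 samples, and -0.10 without genes under a mean of 1 CPM. It was -0.97 without the 7 genes listed as restricted in imprinting and -0.75 with the GC and length correction. When each library was left out in turn it was -0.49 to -0.12. The sign thus held in those fits and turned with both changes of the low-count filter and in BPA replicate 3.

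Summed over all members, the paternal class stood at 425, 455 and 415 CPM untreated and 353, 346 and 308 CPM under BPA, with all BPA libraries lower. The sum is carried by the abundant genes Nnat, Slc38a4, Ndn, Igf2, Dlk1 and Mest. The called genes Nnat, Slc38a4 and Mest had means of 100, 76.2 and 28.9 CPM untreated and 40.4, 43.3 and 11.8 CPM under BPA. Ndn, Igf2 and Dlk1, which were not called, had means of 79.1, 48.7 and 45.8 CPM untreated and 75.9, 39.7 and 43.8 CPM under BPA. The lower sum thus repeats the 3 calls and does not show a fall of the class. The maternal class stood at 835, 838 and 810 CPM against 914, 990 and 817 CPM, and its groups overlapped. H19 made up the largest share of that sum and fell, while Copg2, Igf2r and Cdkn1c were higher. For 15 of the 32 genes (46.9%) the groups did not overlap, 8 with BPA above and 7 with BPA below. The share among all tested genes was 31.3%, with 15.6% above and 15.7% below.

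Levels between genes were compared per length, as CPM per kilobase of exon. H19 led with a mean of 126 CPM per kb, followed by Cdkn1c at 71.5, Cd81 at 39.4, Nnat at 38.5, Phlda2 at 26.1, Ndn at 21.0, Copg2 at 18.0 and Slc38a4 at 14.0 CPM per kb. These means pool both groups. In the untreated libraries alone Nnat, at 54.9 ± 4.41 (SD, n = 3) CPM per kb, stood above Cd81, at 41.8 ± 0.380, and Slc38a4, at 17.9 ± 2.42, above Copg2, at 11.5 ± 1.47. Dlk1, Igf2 and Igf2r had close means of 7.92, 7.73 and 7.66 CPM per kb over all libraries. In the untreated libraries Igf2r was lower, at 4.54 ± 0.466 CPM per kb, than Dlk1 at 8.09 ± 0.229 and Igf2 at 8.51 ± 1.15, and the last pair did not differ beyond its spread. In the Dlk1-Meg3 cluster, where Dlk1 is a transmembrane regulator of differentiation and Meg3 a non-coding RNA from the other allele, Dlk1 was at 45.8 ± 1.30 CPM untreated (SD, n = 3) and Meg3 at 0.274 ± 0.474 CPM.

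**Figure D4:**
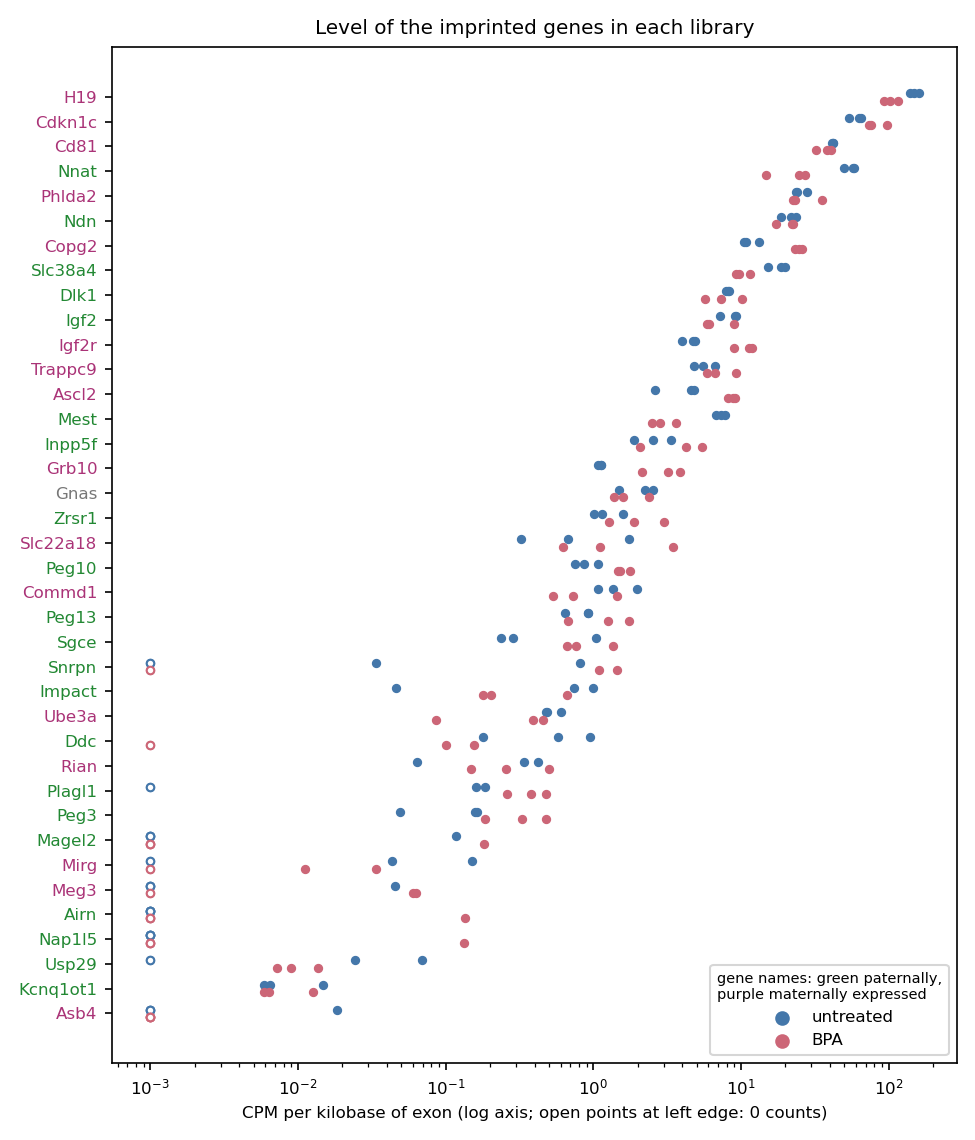
Expression per kilobase of exon (CPM per kb, log axis) of all 38 imprinted genes, ordered by mean level, with 1 point per library and the groups in different colours. H19 and Cdkn1c stand at the top, and the genes at the bottom, down to Asb4, are near or at 0 in most libraries.

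Further imprinted genes outside the 38 were looked at as a group. Of 33 listed 19 were tested, and 1 rose and 1 fell (10.5%, beside 10.6% of all tested genes), with a median log2 fold change of -0.18. Both belong to 1 locus. H13, the signal peptide peptidase gene, fell from 87.3, 102 and 70.9 CPM to 35.5, 61.5 and 37.3 CPM, with a log2 change of -0.95 (SE 0.25) at an edgeR adjusted p of 0.0307. Mcts2, a paternally expressed retrocopy of Mcts1 inside H13, rose from 9.75, 4.71 and 10.2 CPM to 28.5, 22.5 and 23.6 CPM, with a log2 change of 1.60 (SE 0.36) at an edgeR adjusted p of 0.016. The direction of Mcts2 was opposite to that of the called paternally expressed genes of the 38, which fell. Mcts2 and H13 lie on the same strand and share 0 of the 912 exon bases of Mcts2. Reads of Mcts2 and its source gene may be split, so the Mcts2 count is uncertain. Neither call held throughout. Mcts2 missed the threshold when untreated replicate 1, untreated replicate 2 or BPA replicate 1 was left out, at adjusted p up to 0.0757, and H13 did so for the same libraries and for BPA replicate 3, at up to 0.145.

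Of 21 genes that write, read, protect or erase imprints 18 were tested, 0 rose and 3 fell. The 3 are 16.7% of those tested, beside 10.6% of all tested genes, and the median log2 fold change of the 18 was 0.21. Uhrf1, which brings the maintenance methyltransferase to replicated DNA, fell from 603, 632 and 567 CPM to 395, 428 and 361 CPM, with a log2 change of -0.61 (SE 0.13) at an edgeR adjusted p of 0.0144. Dnmt3l, the cofactor of de novo methylation in germ cells, fell from 16.0, 19.8 and 16.5 CPM to 6.42, 5.75 and 4.97 CPM, with a log2 change of -1.61 (SE 0.35) at an edgeR adjusted p of 0.0135. Dppa3, which protects imprints in the zygote, fell from 5.20, 12.4 and 4.43 CPM to 0.917, 0.694 and 0.367 CPM, with a log2 change of -3.48 (SE 0.75) at an edgeR adjusted p of 0.0128. In all 3 the groups did not overlap, as was so for 5 of the 18 (27.8%, beside 31.3% of all tested genes). Each missed the threshold in at least 1 alternative. Dppa3 did so with limma-voom and when untreated replicate 2 was left out. Dnmt3l and Uhrf1 did so when untreated replicate 1, untreated replicate 2 or BPA replicate 3 was left out, and Uhrf1 also for BPA replicate 1.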

How the data were processed

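Gene expression was measured by RNA sequencing in 3 untreated and 3 BPA samples. Per the labels' protocols total RNA from miRNeasy columns was made into libraries with a TruSeq RNA v2 kit, which does not mark strand. The submitters' processing notes name TopHat2 2.0.9, HTSeq and mm10. No strand setting or annotation release is given in the sources used here. Deposited counts are whole numbers per gene, made by the authors and not normalized. The deposited FPKM values equal the counts over a gene length and the column total, within 9.2e-04, and were not tested. The FPKM length exceeds the locus by over 1% for 1006 of 18833 genes, 5 of them imprinted, so union exon lengths of GENCODE vM21 were used, in which 98.8% of gene IDs were found. Loci are those of the table, and promoter and miRNA sequences are from RefSeq (GRCm38.p6).

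Low counts were removed with filterByExpr, library sizes were TMM-scaled, and edgeR 4.0.16 was used for the test (quasi-likelihood, R 4.3.3), with Benjamini-Hochberg adjustment over all 13287 tested genes at 0.05. The self-test on simulated data for this comparison, with 200 of 13287 genes changed, had edgeR find 25 of the 100 genes changed 2-fold and 61 of the 100 changed 4-fold, and 4 of its 90 calls were false. The alternatives were DESeq2 1.42.0, limma-voom (limma 3.58.1), other scalings and filters, a replicate block, a correction for GC content and length by lowess (span 0.3) and leaving out each library. Values in every library are given for genes past the threshold, for the others with a mean of at least 50 CPM and for cluster partners of a called gene, and up to 4 called genes are named from each of the lists of other imprinted genes and imprint machinery; called cell markers were named after their values were seen. The expressed allele and the gene lists come from general knowledge. The members and lists were chosen with earlier results of these data known. Limits given by a count of 0 use 3 counts and cover counting error only. The plots were made with Python 3.11.15 and matplotlib 3.10.9.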

Additional observations from a re-analysis of the deposited data

How the results depend on the processing

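The number of imprinted genes past the threshold was 3 higher and 4 lower with DESeq2, limma-voom, DESeq2 size factors and both filters on low counts. In those fits 3.81% to 6.32% of all tested genes were higher and 5.29% to 7.96% lower. Library size scaling gave 4 and 4, beside 6.25% and 5.92% of all tested genes. It moved the median of all tested genes from 0.10 to 0.21. The GC and length correction gave 5 higher, Ascl2 and Cdkn1c being added, and 4 lower, with Ube3a in place of H19. Of all tested genes 6.57% were then higher and 9.03% lower. Leaving out 1 library gave 2 to 4 higher and 1 to 4 lower, beside 1.18% to 8.81% and 2.06% to 11.7% of all tested genes. The labels state no pairing, so the replicate numbers were not taken as pairs. Same-numbered libraries deviated together with correlations of -0.021, 0.061 and 0.067, and libraries of different numbers with -0.079 to 0.028. These values do not exclude a pairing. With a replicate block the counts were 3 and 4, beside 5.43% and 7.41% of all tested genes, and the class difference was -0.46. The paternal minus maternal median was 0.32 with no low-count filter and 0.21 with at least 1 CPM in 3 samples. It was -0.75 with the GC and length correction, -0.97 without the 7 genes listed as restricted in imprinting, and -0.49 to -0.12 without 1 library. The Ndn change was 0.04 with library size scaling, 0.02 without untreated replicate 2 and 0.06 without BPA replicate 3. The causes were not tested. None of the 15 tested imprinted genes under 10 CPM was called, while 1301 of all 1415 called genes had a mean of at least 10 CPM. In simulated counts of all levels, with 200 of 13287 genes changed, edgeR found 25 of 100 2-fold changes. That share was not worked out for genes under 10 CPM.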
